A study of Mus musculus with 9 samples.

Results

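Interferon response genes are genes whose transcription rises when a cell senses interferon. A list of 43 such genes was followed here on mouse arrays, and all probe sets annotated to exactly 1 of the listed genes were taken. Of the 43 genes, 37 had such a probe set, 49 probe sets in all, among 22690 probe sets for 12394 genes in the whole table. A filter on dim signals left 35 of these probe sets and 29 of the genes, out of 8965 genes tested. The rule names the genes and uses no value of these arrays, but the list was chosen with earlier results of these data known.

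The study took RNA from 3 kinds of mouse blood-forming cells, with 3 Affymetrix arrays each. GMP are normal granulocyte-macrophage progenitors of the bone marrow, which give rise to granulocytes and macrophages. L-GMP are leukemic cells that resemble GMP and were isolated from leukemic marrow, in a study of MLL-AF9, the fusion protein made when Kmt2a is joined to Mllt3. L-GMP-derived cells are read here as L-GMP propagated in culture. Their arrays have L-GMP as source but a bare code for a title, so they were placed by elimination, which limits every statement about them. The sources used here give no strain, age, culture medium or route by which MLL-AF9 was introduced. Both leukemic groups carry MLL-AF9, and GMP do not. The labels do not say whether arrays within a group hold different animals or cultures, so p-values measure only a spread between arrays that may be technical.

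Type I interferons bind the receptor of Ifnar1 and Ifnar2, and interferon gamma binds the receptor of Ifngr1 and Ifngr2. Both act through Janus kinases, which activate STAT proteins. Stat2 and Irf9 are parts of a complex that binds the interferon-stimulated response element (ISRE), and the gamma-activated site (GAS) is the second element of this kind. The induced proteins block viral replication, attack vacuoles that hold pathogens, and switch the proteasome to a form that makes peptides for class I presentation. Hematopoietic cells keep a low tonic interferon signal also without infection, and Irf8, itself induced by interferon gamma, is needed for monocyte development.

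The sequences that these factors recognise were looked for in the 250 bases before each start site, in promoters from RefSeq on the GRCm38.p6 assembly. The letters searched were GAAANNGAAA for the ISRE core and TTCNNNGAA for GAS, on both strands, where N is any base. Matches of both kinds overlapped in 1 member, Bst2. An ISRE core stood in the promoters of 15 of the 36 members with a promoter in the table (41.7%), against 3.46% of 27025 genes. GAS stood in 9 of the 36 (25%), against 8.13% of all genes. The 6 promoters that follow were chosen among those that hold a match, and promoters without a match are not shown. The first 5 belong to genes that were lower in L-GMP-derived cells than in GMP. The last belongs to the classical target Ifit1, whose probe set stayed at the floor. Each is written in the direction of the gene, and capitals mark the matches.
Cxcl10 (chr5:92348890-92349139, minus strand, 1 ISRE core): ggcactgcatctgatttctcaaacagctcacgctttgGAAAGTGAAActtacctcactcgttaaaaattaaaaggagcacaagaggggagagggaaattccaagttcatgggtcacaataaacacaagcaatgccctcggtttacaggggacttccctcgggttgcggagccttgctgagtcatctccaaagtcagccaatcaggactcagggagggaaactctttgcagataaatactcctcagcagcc
Gbp2 (chr3:142620413-142620662, plus strand, 1 ISRE core): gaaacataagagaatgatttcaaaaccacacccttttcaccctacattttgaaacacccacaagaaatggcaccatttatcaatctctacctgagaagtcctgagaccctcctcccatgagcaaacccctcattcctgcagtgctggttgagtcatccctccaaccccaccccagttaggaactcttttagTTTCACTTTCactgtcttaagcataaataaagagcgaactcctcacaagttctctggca
Trim30a (chr7:104465194-104465443, minus strand, 1 ISRE core): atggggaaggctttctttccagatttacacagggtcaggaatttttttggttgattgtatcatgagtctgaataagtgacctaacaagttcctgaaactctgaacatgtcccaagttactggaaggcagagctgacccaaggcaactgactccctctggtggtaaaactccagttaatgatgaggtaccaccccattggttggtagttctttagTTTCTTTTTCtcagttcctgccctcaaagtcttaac
Igtp (chr11:58199306-58199555, plus strand, 1 GAS followed by 1 ISRE core): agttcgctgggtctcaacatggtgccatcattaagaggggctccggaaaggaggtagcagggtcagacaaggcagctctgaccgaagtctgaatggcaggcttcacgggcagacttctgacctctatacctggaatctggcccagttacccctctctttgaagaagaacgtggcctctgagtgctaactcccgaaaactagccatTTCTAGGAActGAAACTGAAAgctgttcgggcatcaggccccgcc
Irf1 (chr11:53769764-53770013, plus strand, 1 GAS): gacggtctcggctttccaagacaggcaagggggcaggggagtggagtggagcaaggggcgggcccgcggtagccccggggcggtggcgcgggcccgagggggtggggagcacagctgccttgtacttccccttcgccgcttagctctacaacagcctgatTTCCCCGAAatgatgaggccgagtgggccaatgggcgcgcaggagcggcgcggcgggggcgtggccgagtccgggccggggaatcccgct
Ifit1 (chr19:34640639-34640888, plus strand, 2 ISRE cores): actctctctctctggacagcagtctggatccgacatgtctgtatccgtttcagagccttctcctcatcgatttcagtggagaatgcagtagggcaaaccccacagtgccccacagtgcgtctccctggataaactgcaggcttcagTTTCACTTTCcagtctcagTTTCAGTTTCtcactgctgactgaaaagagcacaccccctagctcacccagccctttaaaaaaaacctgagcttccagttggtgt
The Trim30a and Irf1 promoters are each 1 of 2 listed for the gene, and the other holds no match. The match lay 213 bases before the start site in Cxcl10, 59 in Gbp2 and 36 in Trim30a. A match is a description of these letters and not a shown binding site.

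The 9 arrays separated by kind of cell, with correlations of 0.958 to 0.991 within and 0.898 to 0.928 between groups. L-GMP-derived replicate 1 stood somewhat apart, at 0.958 to 0.964 with the other 2 arrays of its group, which correlated at 0.989. Markers of GMP were all detected on some array, but Kit and Cd34, surface proteins used to sort GMP, were low in L-GMP-derived cells, where Cd34 averaged 36.4 against 568 in GMP. Signals are the authors' linear values, a floor was set at 62.4, and "at least" marks folds in which an array of the lower group lay at that floor. Adjusted p-values come from limma with Benjamini-Hochberg adjustment over all 14578 tested probe sets, and a difference was called at an adjusted p under 0.05. The 2 comparisons with GMP share the GMP arrays. Kit, Cd34, Mpo and Csf1r, 4 of the 9 tested GMP markers (44.4%), were lower in L-GMP-derived cells than in GMP, beside 10.7% of all genes. The other 5, Elane, Prtn3, Ctsg, Fcgr3 and Cebpa, were not called in that comparison.

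The interferon response genes were lowest in L-GMP-derived cells. Against GMP, 13 of the 29 tested members (44.8%) were lower there and 0 were higher, while 10.7% of all 8965 tested genes were lower and 13.4% higher. Of the 29 differences, 26 were negative. In limma's test 1 member, Ifi35, was higher at an unadjusted p under 0.05. Because each array holds RNA of many cells, fewer cells of a type and less RNA per cell cannot be told apart. Against L-GMP, 8 members (27.6%) were lower in L-GMP-derived cells and 1 was higher, beside 14.1% and 16.6% of all genes. In L-GMP against GMP, 6 members (20.7%) were lower and 2 higher, beside 12.8% and 13.1% of all genes. The median difference of the members on the log2 scale was -0.35 for L-GMP-derived cells against GMP, -0.31 against L-GMP and -0.05 for L-GMP against GMP. The medians over all genes were 0.00, 0.00 and -0.01. These counts hold Gbp2, which passed the filter through the GMP arrays alone and so had to differ from them. Without Gbp2, 12 of 28 members (42.9%) were lower in L-GMP-derived cells than in GMP and 5 of 28 (17.9%) lower in L-GMP.

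The same order stood on single arrays. Each gene's log2 signal was set against its mean over the 9 arrays, and the median over the 29 members was 0.20 to 0.28 on the GMP arrays. It was 0.05 to 0.15 on the L-GMP arrays and -0.35 to -0.16 on the L-GMP-derived arrays, so the groups did not overlap. The lowest of the 9 signals fell on L-GMP-derived replicate 1 for 8 members, on replicate 2 for 9 and on replicate 3 for 5. How the lowest signals of all tested genes fell on the arrays was not counted, so these counts are a description. On the other side, 13 of the 29 tested members were called in no comparison, and that share over all genes was not counted either.

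**Figure D1:**
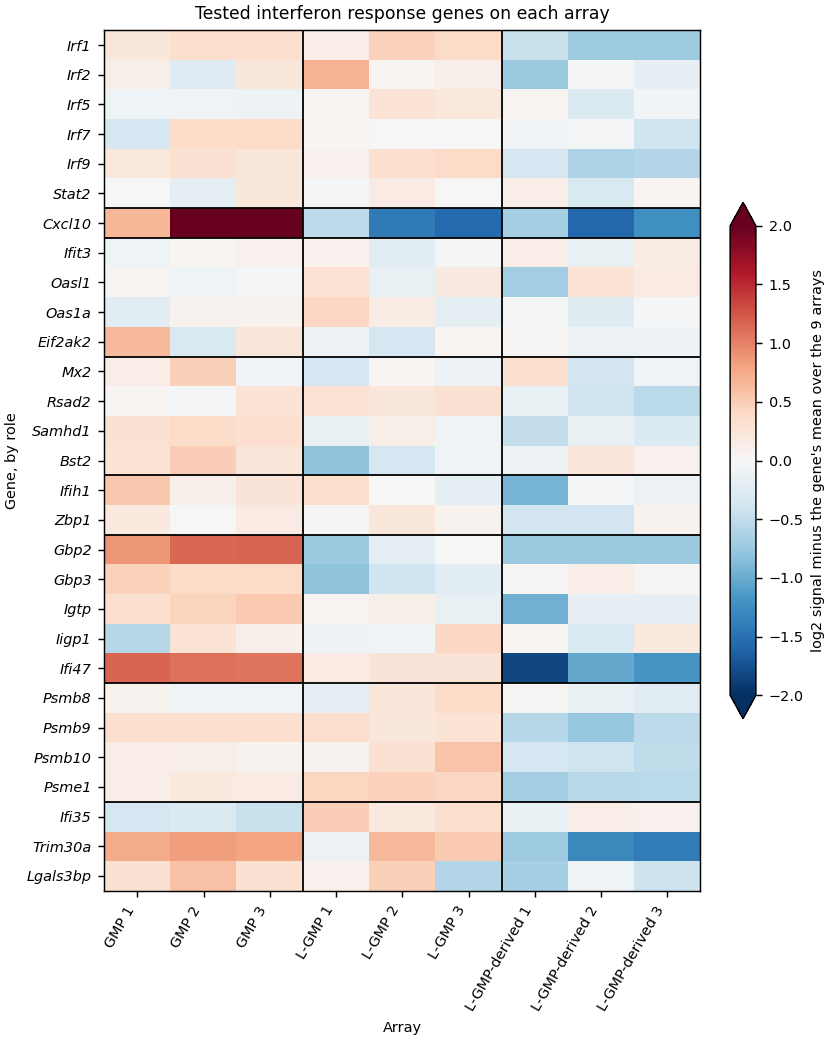
Heat map of the 29 tested interferon response genes (rows, grouped by role, with lines between roles) on the 9 arrays (columns). Colour is the log2 signal minus the gene's mean over the 9 arrays, red above and blue below, with colours ending at 2 on either side. The L-GMP-derived columns are mostly blue, and their medians lie between -0.35 and -0.16.

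Among the transcription factors, Irf1 and Irf9 were lower in L-GMP-derived cells than in both other groups, and the other tested ones were not called. Irf1, an activator induced mainly through GAS, ranged from 1602 to 1726 in GMP, from 1490 to 1887 in L-GMP and from 830 to 1005 in L-GMP-derived cells. It was 1.90-fold lower than in GMP (log2 difference -0.92 ± 0.12 SE, adjusted p = 0.000318) and 1.93-fold lower than in L-GMP (adjusted p = 0.000212). GMP and L-GMP overlapped, at an adjusted p of 0.901.

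Irf9, the DNA-binding subunit of the complex that recognises ISRE, gave signals of 189, 201 and 190 in GMP, of 172, 204 and 214 in L-GMP and of 130, 107 and 108 in L-GMP-derived cells. All 3 L-GMP-derived arrays lay below the other 6. The difference was 1.69-fold against GMP (log2 -0.76 ± 0.13 SE, adjusted p = 0.00220) and 1.71-fold against L-GMP (adjusted p = 0.00147).

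Stat2, the partner of Irf9 in that complex, gave 167, 148 and 197 in GMP, 163, 189 and 167 in L-GMP and 184, 136 and 173 in L-GMP-derived cells. The 3 groups overlapped and no comparison was called, with adjusted p-values of 0.918, 0.833 and 0.735. Irf7, the factor that amplifies type I interferon production, gave 299, 486 and 490 in GMP, 385, 379 and 378 in L-GMP and 361, 371 and 285 in L-GMP-derived cells. GMP replicate 1 was lower than the other 2 GMP arrays, and its group overlapped both others. The difference of L-GMP-derived cells from GMP was -0.30 ± 0.19 SE on the log2 scale (adjusted p = 0.291), and without GMP replicate 1 it was called at an adjusted p of 0.0314. The tested probe sets of Irf2 and Irf5 were dim, between 67.8 and 184 on all arrays, and were not called.

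Cxcl10, a chemokine that draws in activated T cells, had the largest fold difference of the tested members, in both comparisons with GMP. Its signals were 377, 2643 and 1694 in GMP, 165, 89.3 and 80.9 in L-GMP, and 150.2, 80.5 and 101 in L-GMP-derived cells. Every GMP array lay above all 6 others, but GMP replicate 1 was far below the other 2, and the leukemic groups overlapped. Cxcl10 was 11.2-fold lower in L-GMP than in GMP (log2 -3.49 ± 0.59 SE, adjusted p = 0.00169) and 11.1-fold lower in L-GMP-derived cells (adjusted p = 0.00198). Without GMP replicate 1, the fold was 19.97 and 19.84, and without GMP replicate 2 it was 7.52 and 7.46.

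The interferon-inducible GTPases, which attack the membranes around intracellular pathogens, held 6 members, of which 5 were tested. Of these, 3 were lower in L-GMP than in GMP, where 12.8% of all genes were lower, and 3 were lower in L-GMP-derived cells than in GMP, where 10.7% were. Without Gbp2, 2 of 4 were lower in each. Against L-GMP, 1 was lower and 1 higher in L-GMP-derived cells, beside 14.1% and 16.6% of all genes.

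Ifi47, a GTPase of this class also called Irg47, had the largest difference of the tested members between L-GMP-derived cells and L-GMP. Its signals were 2999, 2876 and 2811 in GMP, 1503, 1594 and 1603 in L-GMP, and 377, 659 and 591 in L-GMP-derived cells. The 3 groups formed 3 steps with no overlap. The step from GMP to L-GMP was 1.85-fold (log2 -0.89 ± 0.17 SE, adjusted p = 0.00392), and the step from L-GMP to L-GMP-derived cells 2.97-fold (log2 -1.57 ± 0.17 SE, adjusted p = 0.000103). L-GMP-derived cells lay 5.48-fold below GMP (log2 -2.46 ± 0.17 SE, adjusted p = 5.57e-06).

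Gbp2, a guanylate-binding protein, gave 193, 232 and 235 in GMP, 61.6, 91.1 and 104 in L-GMP, and 34.0, 30.5 and 41.3 in L-GMP-derived cells. It passed the filter through the GMP arrays alone, so that a difference from GMP was bound to appear, and 4 of the 6 leukemic arrays lay below the floor. It was at least 2.61-fold lower in L-GMP and at least 3.51-fold lower in L-GMP-derived cells, given as a description. This probe set is of a kind (_x_at) that can also bind related transcripts, and a second Gbp2 probe set lay below the floor on all 9 arrays.

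Gbp3, its relative, was lowest in L-GMP. It ranged from 1210 to 1285 in GMP, from 535 to 808 in L-GMP and from 944 to 1019 in L-GMP-derived cells, with no overlap between groups. It was 1.84-fold lower in L-GMP than in GMP (log2 -0.88 ± 0.14 SE, adjusted p = 0.00134) and 1.44-fold higher in L-GMP-derived cells than in L-GMP (adjusted p = 0.0185). The second call was lost without L-GMP-derived replicate 2, at an adjusted p of 0.0585.

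Igtp, a GTPase of the same class as Ifi47 whose promoter holds both motifs, ranged from 666 to 767 in GMP, from 480.0 to 576 in L-GMP and from 274 to 479 in L-GMP-derived cells. It was 1.81-fold lower in L-GMP-derived cells than in GMP (log2 -0.86 ± 0.20 SE, adjusted p = 0.0108). Iigp1 was bright and not called on its main probe set, with 424 to 836 over all arrays. Its second, dim probe set ranged from 118 to 166 in GMP, from 56.4 to 64.7 in L-GMP and from 59.4 to 88.8 in L-GMP-derived cells. That probe set also passed the filter through GMP alone, so its difference from GMP is no test. Irgm1, the last of the class, was not tested, with 27.4 to 81.4 over the 9 arrays.

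**Figure D2:**
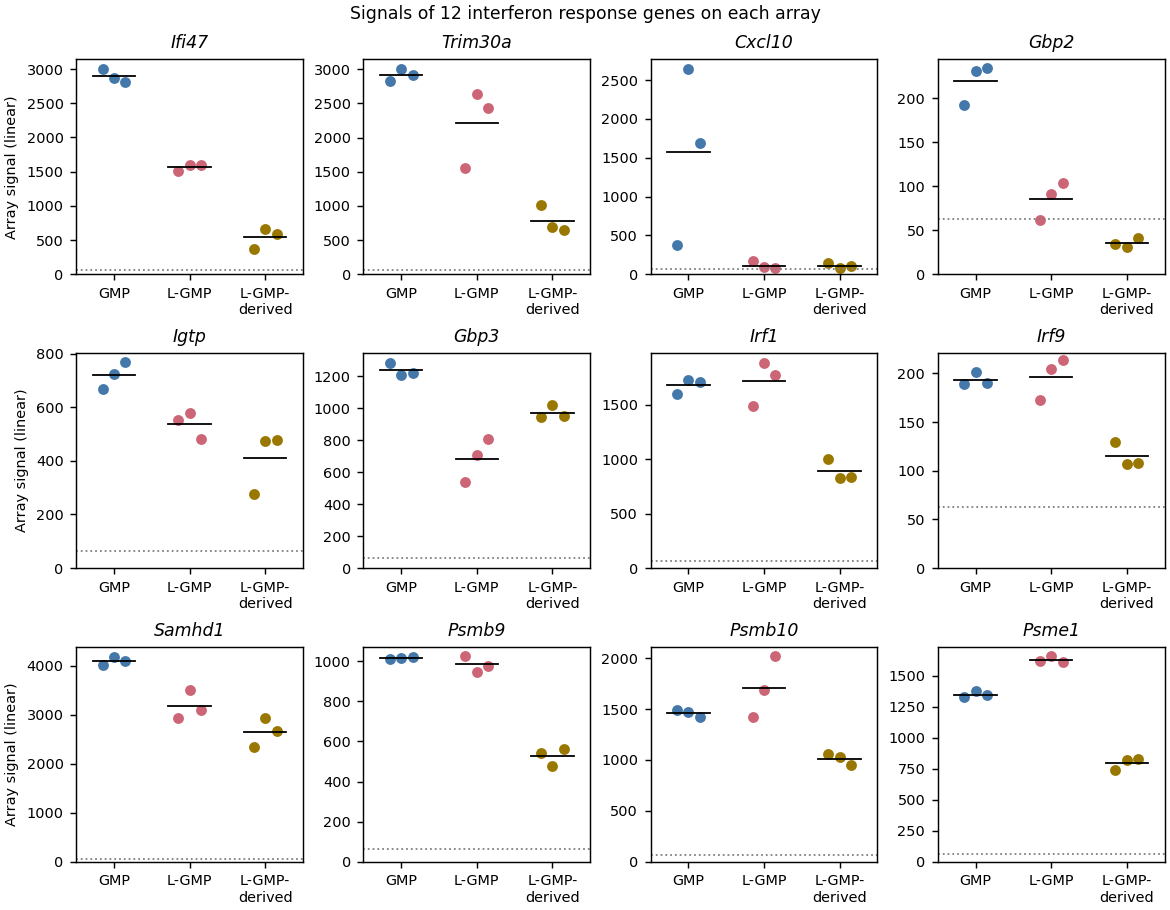
Signals of 12 members on each array, on a linear axis from 0 for each gene. Points are arrays in replicate order from left to right, black lines are group means, and the dotted line is the floor of 62.4. Ifi47 falls in 3 separate steps, Cxcl10 and Gbp2 are highest in GMP, and Irf1, Irf9, Psmb9, Psmb10 and Psme1 are lowest in L-GMP-derived cells.

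Trim30a, a tripartite motif protein that dampens Toll-like receptor signals in mouse cells, gave 2825, 3000 and 2918 in GMP, 1562, 2639 and 2435 in L-GMP, and 1019, 690.0 and 642 in L-GMP-derived cells. All L-GMP-derived arrays lay below all others, and L-GMP replicate 1 was the lowest of its group. It was 3.798-fold lower in L-GMP-derived cells than in GMP (log2 -1.93 ± 0.21 SE, adjusted p = 0.000104) and 2.81-fold lower than in L-GMP (log2 -1.49 ± 0.21 SE, adjusted p = 0.000450). Its second probe set was 3.49-fold (adjusted p = 7.08e-06) and 2.36-fold lower (adjusted p = 8.36e-05), and was also 1.48-fold lower in L-GMP than in GMP (adjusted p = 0.0100). The main probe set was not called in that comparison, at an adjusted p of 0.158.

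The interferon-induced proteasome genes were lower in L-GMP-derived cells, with 3 of the 4 tested called against each of the other groups. The shares of all genes lower there were 10.7% against GMP and 14.1% against L-GMP. Psmb8, Psmb9 and Psmb10 encode the catalytic subunits that replace the standard ones in the immunoproteasome, and Psme1 encodes a subunit of the activator that opens the proteasome's gate. Psmb9 gave 1010, 1017 and 1019 in GMP, 1025, 947 and 978 in L-GMP, and 543, 477 and 563 in L-GMP-derived cells. The GMP and L-GMP arrays overlapped and all L-GMP-derived arrays lay far below them. The difference was 1.93-fold against GMP (log2 -0.95 ± 0.11 SE, adjusted p = 0.000122) and 1.87-fold against L-GMP (adjusted p = 0.000140).

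Psmb10 gave 1488, 1467 and 1420 in GMP, 1426, 1684 and 2017 in L-GMP, and 1063, 1024 and 954 in L-GMP-derived cells. L-GMP arrays were spread widely, and all L-GMP-derived arrays lay below them and below GMP. The difference was 1.44-fold against GMP (log2 -0.53 ± 0.12 SE, adjusted p = 0.0110) and 1.67-fold against L-GMP (adjusted p = 0.00130).

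Psme1 gave 1324, 1373 and 1344 in GMP, 1620, 1655 and 1606 in L-GMP, and 743, 820 and 827 in L-GMP-derived cells. The groups did not overlap, and L-GMP were the highest. Psme1 was 1.69-fold lower in L-GMP-derived cells than in GMP (log2 -0.76 ± 0.09 SE, adjusted p = 0.000182) and 2.05-fold lower than in L-GMP (log2 -1.03 ± 0.09 SE, adjusted p = 2.20e-05). The excess of 1.21-fold in L-GMP over GMP was called at an adjusted p of 0.0460.

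Psmb8 gave 622, 558 and 559 in GMP, 527, 703 and 761 in L-GMP and 599, 541 and 505 in L-GMP-derived cells. The groups overlapped and no comparison was called, and the log2 difference was -0.08 ± 0.15 SE against GMP (adjusted p = 0.734) and -0.26 ± 0.15 SE against L-GMP (adjusted p = 0.219). The difference from L-GMP was called with array weights (adjusted p = 0.0212) and without L-GMP replicate 1 (log2 -0.42, adjusted p = 0.0405). Whether Psmb8 differs from Psmb9 in its response was not tested.

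Of the proteasome genes that interferon does not induce, 4 were tested. Psmb5, the standard subunit that Psmb8 replaces, was 1.61-fold higher in L-GMP-derived cells than in GMP (2622 ± 68.8 against 1630 ± 79.6, SD, n = 3, adjusted p = 8.32e-05). It was also higher in L-GMP than in GMP, by 1.23-fold (adjusted p = 0.0126), where Psme3, a nuclear activator subunit, was 1.46-fold lower (adjusted p = 0.0243). Against L-GMP, 16.6% of all genes were higher in L-GMP-derived cells, and 3 of the 4 genes of this list were higher. These were Psmb5 (1.31-fold, adjusted p = 0.00228), Psmb6, which Psmb9 replaces (1.23-fold, adjusted p = 0.0421), and Psme3 (1.56-fold, adjusted p = 0.00961). Psme3 was not called in L-GMP-derived cells against GMP, at 1.07-fold and an adjusted p of 0.695. Psmb7, which Psmb10 replaces, was not called in any comparison.

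**Figure D3:**
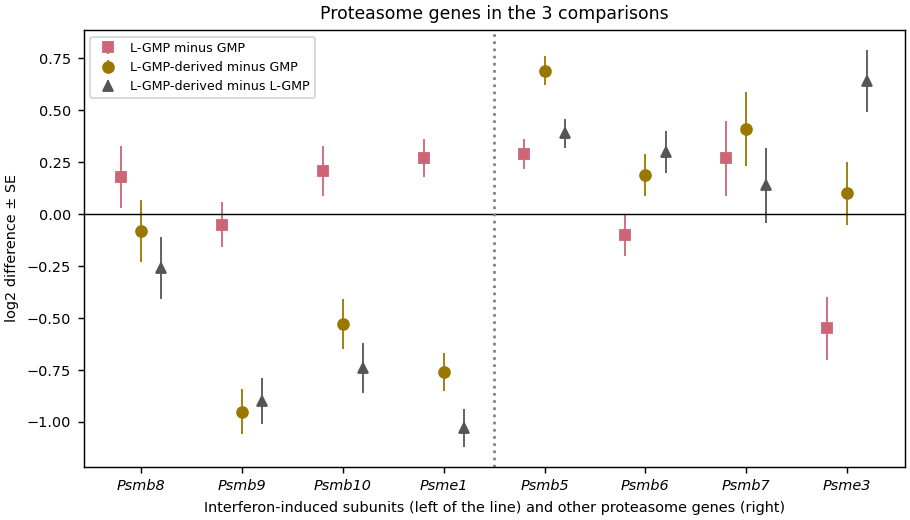
Log2 differences ± SE of 8 proteasome genes in the 3 comparisons, with the interferon-induced genes left of the dotted line. Psmb9, Psmb10 and Psme1 lie between -1.03 and -0.53 in both comparisons of L-GMP-derived cells, while Psmb5 lies at 0.69 and 0.39.

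Of the 8 tested antiviral effectors, 2 (25%) were lower in L-GMP than in GMP and 2 (25%) lower in L-GMP-derived cells than in GMP, beside 12.8% and 10.7% of all genes. Against L-GMP, 1 of the 8 (12.5%) was lower in L-GMP-derived cells, beside 14.1%. In the group of IFIT proteins, oligoadenylate synthetases and the kinase Eif2ak2, which bind or sense viral RNA, 4 of 8 members were tested and 0 were called by limma in any comparison, and 0 passed an unadjusted p of 0.05. Ifit3 lay between 333 and 427 on all 9 arrays, and its difference of L-GMP-derived cells from GMP was 0.03 ± 0.13 SE on the log2 scale (adjusted p = 0.894). Oas1a lay between 446 and 699, Oasl1 between 82.4 and 164, and Eif2ak2 between 163 and 323. Ifit1, one of the most inducible interferon targets, gave 44.6, 16.6 and 42.1 in GMP, 21.9, 15.1 and 20.05 in L-GMP, and 5.46, 25.1 and 29.2 in L-GMP-derived cells. All 9 values lay below the floor, as did those of Oasl2 and of the RNA-editing enzyme Adar, so no order can be read from them.

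Samhd1, which depletes the nucleotides that retroviruses need, ranged from 4012 to 4182 in GMP, from 2924 to 3507 in L-GMP and from 2330 to 2939 in L-GMP-derived cells, where the leukemic groups overlapped. It was 1.30-fold lower in L-GMP (adjusted p = 0.0134) and 1.56-fold lower in L-GMP-derived cells (log2 -0.64 ± 0.09 SE, adjusted p = 0.000728) than in GMP. Another 2 tested probe sets of Samhd1 were called in no comparison, with adjusted p-values of 0.331 and 0.359 for L-GMP-derived cells against GMP.

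Rsad2, also called viperin, which makes a chain-terminating nucleotide, ranged from 153 to 190.4 in GMP, from 184 to 195 in L-GMP and from 109 to 142 in L-GMP-derived cells. It was 1.36-fold lower in L-GMP-derived cells than in GMP (adjusted p = 0.0390) and 1.55-fold lower than in L-GMP (adjusted p = 0.00620). Its second tested probe set ranged from 213 to 372 in GMP, from 112 to 136 in L-GMP and from 53.4 to 71.7 in L-GMP-derived cells. That probe set was 2.35-fold lower in L-GMP than in GMP (adjusted p = 0.00107) and at least 4.48-fold lower in L-GMP-derived cells (adjusted p = 2.92e-05), where the main one showed no call for L-GMP.

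Bst2, or tetherin, which holds budding virus at the cell surface, was 1.69-fold lower in L-GMP than in GMP (117 ± 27.98 against 193 ± 18.1, SD, n = 3, adjusted p = 0.0124). The call was lost without GMP replicate 2, at an adjusted p of 0.0558. L-GMP-derived cells were between them at 162 ± 19.5 and were not called against either. Mx2 was not called, and Mx1 was too dim to test.

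Of the nucleic acid sensors, Ifih1 and Zbp1 were tested and not called. Ifih1, also called MDA5, ranged from 357 to 480.4 in GMP and from 174 to 325 in L-GMP-derived cells, without overlap, at an adjusted p of 0.0692. Ifi204, a DNA sensor of the interferon-inducible p200 family, failed the filter because it was above 111 on only 2 arrays. Its signals were 163, 106 and 169 in GMP, 3.66, 4.89 and 11.1 in L-GMP, and 6.77, 7.88 and 3.95 in L-GMP-derived cells. All GMP arrays lay above the floor and all leukemic arrays below it. In a fit without the filter it was at least 2.29-fold lower in L-GMP and in L-GMP-derived cells than in GMP, given as a description. The leukemic arrays all took the floor value and so had no spread, and no test is read from them.

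Usp18, the protease that removes Isg15 from proteins and blocks the type I receptor, was also too dim for the filter, with 78.1 to 88.1 in GMP, 54.3 to 71.9 in L-GMP and 41.6 to 51.5 in L-GMP-derived cells. Without the filter Usp18 was at least 1.26-fold lower in L-GMP and at least 1.35-fold lower in L-GMP-derived cells than in GMP, also given as a description. All its L-GMP-derived arrays lay below the floor. Ifit2 was the last of the 8 members with a probe set but no test, with 92.4 as its highest signal. Isg15, Ifi203 and Psme2 are named only on probe sets shared with other genes, and their values, with those of Ddx58, Ifi44 and Ifi27, were not analysed here.

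Of the remaining induced genes, Ifi35, a partner of the protein that Nmi encodes, was highest in L-GMP. It ranged from 138 to 154 in GMP, from 214 to 264 in L-GMP and from 170.0 to 205 in L-GMP-derived cells. It was 1.62-fold higher in L-GMP than in GMP (log2 0.69 ± 0.13 SE, adjusted p = 0.00266), and its 1.31-fold excess in L-GMP-derived cells missed the threshold at an adjusted p of 0.0506. Lgals3bp, a secreted glycoprotein, was 1.72-fold lower in L-GMP-derived cells than in GMP (126 ± 25.2 against 215 ± 24.8, SD, n = 3, adjusted p = 0.0423).

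**Figure D4:**
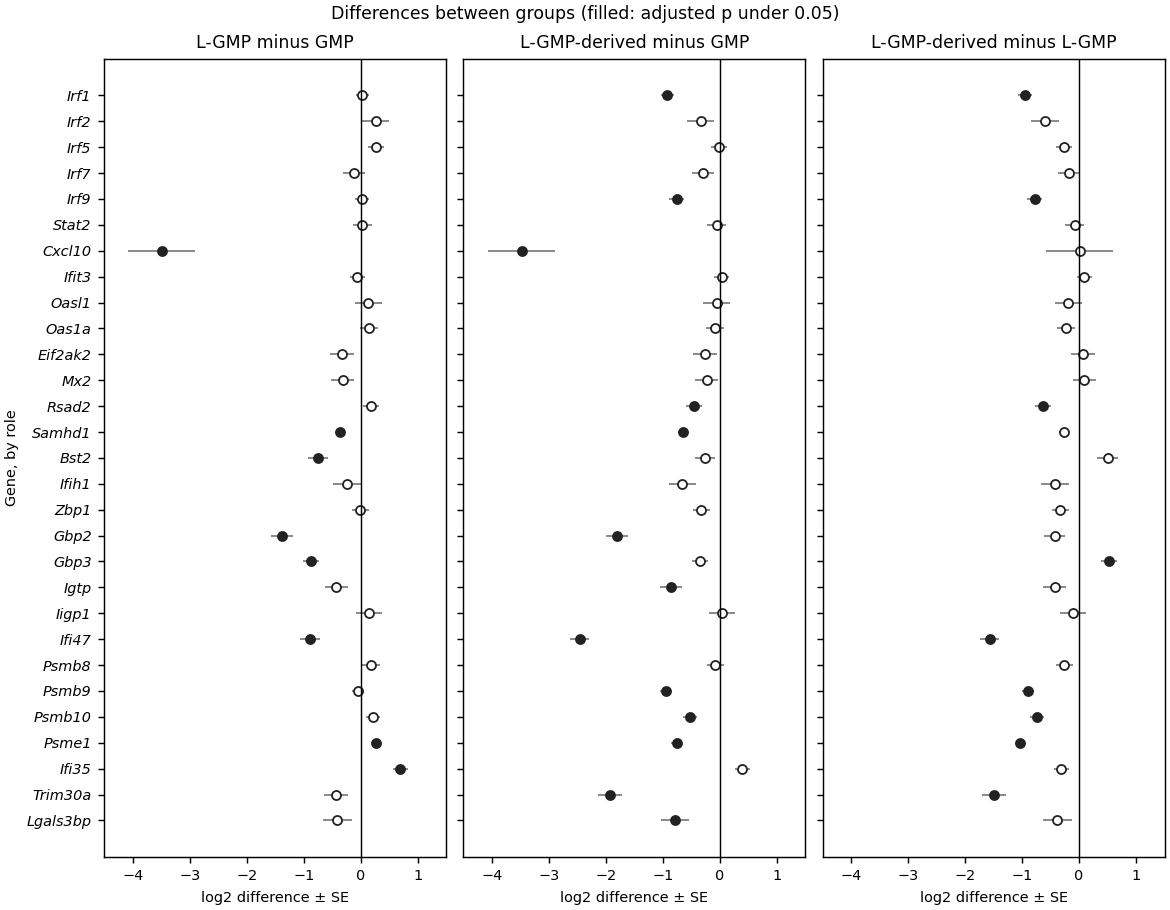
Log2 differences ± SE of the 29 tested members in each of the 3 comparisons, ordered by role. Filled points are called at an adjusted p under 0.05. Against GMP, 13 points are filled for L-GMP-derived cells, all below 0 and Gbp2 among them, while for L-GMP 6 filled points lie below 0 and 2 above.

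By pattern, 8 members were lower in L-GMP-derived cells than in both other groups, namely Irf1, Irf9, Ifi47, Trim30a, Psmb9, Psmb10, Psme1 and Rsad2. Another pattern, lower in both leukemic groups than in GMP, held 4 members: Cxcl10, Ifi47, Samhd1 and Gbp2. The filter bound Gbp2 to this pattern. How many of all tested genes show either pattern was not counted. The comparisons behind each pattern also share a group of arrays, so joint calls are not independent. Neither count is therefore read as a trait of the interferon response genes. An ISRE core stood in 5 of the 13 members that were lower in L-GMP-derived cells than in GMP and in 6 of the 13 other tested members with a promoter. GAS stood in 3 of 13 and 5 of 13. In these windows the promoters of the lower members Ifi47, Psmb9, Psmb10, Psme1, Irf9 and Lgals3bp hold neither.

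The rest of the pathway was followed on further lists. Of the interferons themselves only Ifnb1 passed the filter, with 106 ± 4.84 to 135 ± 16.0 (SD, n = 3) as group means, and it was not called. All 4 receptor chains were detected. In GMP, L-GMP and L-GMP-derived cells, Ifnar1 averaged 374 ± 17.0, 507 ± 25.9 and 384 ± 86.8 (SD, n = 3 each) and was not called. Ifnar2 averaged 644 ± 39.98, 862 ± 23.8 and 608 ± 105.2 and was 1.34-fold higher in L-GMP than in GMP (adjusted p = 0.0400) and 1.43-fold lower in L-GMP-derived cells than in L-GMP (adjusted p = 0.0140).

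Ifngr1 was bright in all groups, at 2828 to 3106 on average, and was not called. Ifngr2 was 1.46-fold lower in L-GMP-derived cells than in L-GMP (328 ± 10.3 against 481 ± 33.0, SD, n = 3, adjusted p = 0.00315). Of the kinases, Jak1 and Tyk2 were not called, while Jak2 was lower in L-GMP-derived cells, by 1.71-fold against GMP (adjusted p = 0.00492) and by 2.12-fold against L-GMP (adjusted p = 0.000535).

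Irf8 averaged 2328 ± 32.7 in GMP, 1985 ± 239 in L-GMP and 556 ± 224 in L-GMP-derived cells (SD, n = 3 each). It was 4.41-fold lower in L-GMP-derived cells than in GMP (adjusted p = 8.16e-05) and 3.74-fold lower than in L-GMP (adjusted p = 0.000145). Of the 11 tested receptor and signalling genes, 0 were higher and 2 (18.2%) lower in L-GMP-derived cells than in GMP. The shares over all genes were 13.4% and 10.7%. Against L-GMP, 0 were higher and 5 (45.5%) lower, beside 16.6% and 14.1% of all genes. At an unadjusted p under 0.05 limma's test also gave 0 higher in either comparison. In L-GMP, 2 were higher than in GMP, Ifnar2 and Irf3, and 0 were lower, with 0 also at an unadjusted p under 0.05. There the shares over all genes were 13.1% higher and 12.8% lower.

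In L-GMP against GMP 13.1% of all genes were higher, and 1 of the 7 tested feedback inhibitors (14.3%) was called. This was the phosphatase gene Ptpn6, 1.53-fold higher (adjusted p = 0.00267). In L-GMP-derived cells against GMP, 1 inhibitor was higher and 1 lower, beside 13.4% and 10.7% of all genes. Ptpn1 was higher by 1.71-fold (adjusted p = 0.0165) and Trim24 lower by 1.30-fold (adjusted p = 0.0478). Against L-GMP, where 16.6% of all genes were higher and 14.1% lower, Socs3 was at least 2.77-fold higher (adjusted p = 0.0405) and Pias1 1.43-fold lower (adjusted p = 0.00297). Of the 10 tested genes that sense nucleic acids or bacteria upstream of interferon, 1 was higher and 2 lower in L-GMP-derived cells than in GMP. The shares over all genes were 13.4% and 10.7%. Tlr4 was 2.87-fold higher (adjusted p = 0.00300), while Tlr7 (1.57-fold, adjusted p = 0.0162) and Traf6 (1.46-fold, adjusted p = 0.0478) were lower. Against L-GMP, 4 (40%) were higher in the same cells and 1 (10%) lower, beside 16.6% and 14.1% of all genes. Sting1 was 1.998-fold higher (adjusted p = 0.0101), beside Tlr4, Trim25 and Mavs, and Tbk1 was lower. In L-GMP against GMP, 1 was higher and 2 lower, beside 13.1% and 12.8% of all genes. Tbk1 was higher (adjusted p = 0.0159), while Tlr7 (1.48-fold, adjusted p = 0.0296) and Trim25 (adjusted p = 0.0229) were lower.

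A further 21 interferon-induced genes outside the list were tested. In L-GMP against GMP 6 (28.6%) were lower and 3 (14.3%) higher, beside 12.8% and 13.1% of all genes. In L-GMP-derived cells against GMP 8 (38.1%) were lower and 3 (14.3%) higher, beside 10.7% and 13.4%. Against L-GMP 7 (33.3%) were lower and 4 (19%) higher, beside 14.1% and 16.6%. Rtp4, a chaperone of receptors, ranged from 452 to 683 in GMP, from 59.1 to 75.2 in L-GMP and from 3.56 to 11.8 in L-GMP-derived cells. It too passed the filter through GMP alone, and without it 5 and 7 of 20 genes of the list were lower in L-GMP and in L-GMP-derived cells than in GMP. Trim34a was 3.06-fold lower in L-GMP-derived cells than in GMP (adjusted p = 1.61e-05) and 2.54-fold lower than in L-GMP (adjusted p = 5.26e-05).

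Ifitm1 and Ifitm3, membrane proteins that block viral entry, were among the genes of that list with large differences. Ifitm1 averaged 1060 ± 37.0 in GMP, 70.0 ± 28.6 in L-GMP and 4735 ± 955 in L-GMP-derived cells (SD, n = 3 each). It was at least 14.4-fold lower in L-GMP (adjusted p = 7.94e-07) and 4.40-fold higher in L-GMP-derived cells (adjusted p = 5.02e-05) than in GMP. Ifitm3 averaged 2071 ± 162 in GMP, 136 ± 41.5 in L-GMP and 857 ± 91.5 in L-GMP-derived cells (SD, n = 3 each). It was lower than in GMP in both, by 15.6-fold (adjusted p = 3.91e-07) and by 2.42-fold (adjusted p = 0.000968). For both genes, every L-GMP-derived array lay above every L-GMP array.

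In class I presentation, which the immunoproteasome supplies with peptides, B2m was 2.58-fold lower in L-GMP-derived cells than in GMP (1620 ± 185 against 4176 ± 346, SD, n = 3, adjusted p = 5.98e-05). It was also 1.38-fold lower in L-GMP (adjusted p = 0.0301). In L-GMP against GMP, 2 of the 7 tested genes were lower, B2m and Tap1, and 2 were higher, beside 12.8% and 13.1% of all genes. The higher ones were Tapbp, a loading chaperone (1.84-fold, adjusted p = 0.00102), and Tap2 (2.02-fold, adjusted p = 0.0253). Tap1, a chain of the peptide transporter, was 1.95-fold lower in L-GMP-derived cells than in GMP (adjusted p = 0.00114) while Tap2, the other chain, was 2.13-fold higher (adjusted p = 0.0193). Over the 7 tested genes, 3 were lower and 1 higher in L-GMP-derived cells than in GMP, beside 10.7% and 13.4% of all genes. Against L-GMP, 4 were lower and 0 higher, beside 14.1% and 16.6%, and 0 were higher also at an unadjusted p under 0.05.

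Summed markers of other cell types moved beside these genes in some lists and not in others. The summed signal of the 8 T and NK cell markers was 3166 to 3391 in GMP, 2428 to 2816 in L-GMP and 1044 to 1434 in L-GMP-derived cells, with 0 of the 8 at the floor on every array. Nkg7, a granule protein gene, averaged 2428 in GMP and 269 in L-GMP-derived cells. Cd3e, the defining T cell gene, was 218 and 183 and was not called (adjusted p = 0.309). Of the 5 tested T and NK cell markers 1 was lower in L-GMP-derived cells than in GMP, Nkg7, and 1 higher, Thy1, beside 10.7% and 13.4% of all genes. Thy1 was above 111 on the 3 L-GMP-derived arrays alone. The 10 monocyte and macrophage markers summed to 6991 to 8255 in GMP, 9659 to 10887 in L-GMP and 2713 to 4097 in L-GMP-derived cells, with 1 of 10, Mrc1, at the floor throughout. The lower sum in L-GMP-derived cells came with Csf1r, which averaged 5767 in GMP and 535 there. Of the 6 tested markers of this list 2 were higher in L-GMP-derived cells than in GMP and 1 was lower, beside 13.4% and 10.7% of all genes. The higher ones were Adgre1 (2.32-fold, adjusted p = 0.0329) and Cd68 (2.17-fold, adjusted p = 0.000261), and the median log2 difference was 0.65. In L-GMP against GMP 3 of the 6 were higher and 0 lower, beside 13.1% and 12.8% of all genes. These were Adgre1 (8.17-fold, adjusted p = 0.000177), Cd68 (3.80-fold, adjusted p = 6.04e-06) and C1qb (2.70-fold, adjusted p = 0.00573). The 9 neutrophil markers summed to 9101 to 22712, 18014 to 36788 and 1173 to 8635, with Mmp9 at the floor throughout. Only Camp of the 6 tested neutrophil markers was lower in L-GMP-derived cells than in GMP, where 10.7% of all genes were lower and 13.4% higher. For plasmacytoid dendritic cell markers the sums in GMP and L-GMP-derived cells overlapped, at 2428 to 2636 and 2435 to 3907. B cell markers also overlapped, at 1859 to 2007 and 1552 to 2011, as did stem cell markers. Sums for MHC class II, erythroid and mast cell markers were lower in L-GMP-derived cells than in GMP, without overlap. The class II markers did not move together. Of the 4 tested, 1 was higher, H2-Ab1 (1.39-fold, adjusted p = 0.0306), and 1 lower, H2-Aa, beside 13.4% and 10.7% of all genes. H2-Aa and the mast cell marker Mcpt8 passed the filter through GMP alone, so their differences from GMP are no test.

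The part of these markers in the results on interferon response genes was not tested. The ratio of 3' to 5' signals of the beta-actin controls, a measure of RNA integrity, was 6.99 to 8.12 in GMP, 4.87 to 5.56 in L-GMP and 6.93 to 7.18 in L-GMP-derived cells. It overlapped between the GMP and L-GMP-derived arrays and was lower in L-GMP. The same ratio of the Gapdh controls was 7.08 to 8.77, 6.17 to 11.6 and 5.86 to 9.22, and overlapped between all groups. Without L-GMP-derived replicate 1, the array that stood apart, 12 members were lower than in GMP and 8 lower than in L-GMP.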

How the data were processed

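The authors deposited linear array intensity values, 1 signal per probe set and array, made with MAS5 (version 5) per the submitters' processing notes; the sources used here give neither scaling target nor background steps. Of 204210 values, 0.939% are negative although MAS5 is named, so the summary step behind the signals is not known. Trimmed array means lay within 4.02% of their mean, so the scaling was kept. Signals below the 25th percentile (62.4) were set to it and log2 was taken, which understates folds of dim genes. A probe set was tested if 3 or more of the 9 arrays exceeded 111 (the 40th percentile); 64 controls were left out.

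Gene names come from the platform annotation: 20393 probe sets had 1 symbol, 691 several and 1606 none listed, and those with 1 were named. Of them, 20364 matched RefSeq genes. For each gene the brightest probe set by mean log2 signal was used. Differences were fitted with limma 3.58.1 (R 4.3.3; lmFit, contrasts.fit, eBayes with trend), two-sided, on all 9 arrays with 6 residual degrees of freedom, and checked on simulated data. Folds are between mean log2 signals. Precision is limited by having 3 arrays a group.

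The members and all lists were chosen with earlier results of these data known. Arrays were given for members called at 2-fold or more and for 8 fixed genes, and up to 3 genes per pathway list and comparison were named. Gbp2, Rtp4, H2-Aa, Mcpt8, Thy1 and Iigp1's second probe set passed the filter through 1 group alone, so their differences from it are not read as tests. Ifi204, Usp18, Iigp1's second probe set and others beyond this rule were named after their values were seen.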

Additional observations from a re-analysis of the deposited data

How the results depend on the processing

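The 19 alternatives changed scaling, floor, filter, trend, arrays, weights or probe set choice, added a replicate block or left out 1 array. In them, 11 of the 13 members lower in L-GMP-derived cells than in GMP kept their call wherever they gave a value (Lgals3bp and Rsad2 lost it in 8 and 11), as did 7 of the 8 lower than in L-GMP (Rsad2 lost it with a higher floor, the 40th percentile) and 4 of the 6 lower in L-GMP than in GMP (not Samhd1 and Bst2). Gbp2 failed the filter without any 1 GMP array. No direction reversed. The count higher in L-GMP-derived cells than in GMP was 1 instead of 0 after quantile normalization, without the trend, with array weights, with the mean over probe sets and with the higher floor. The count higher than in L-GMP was 0 with only the 6 arrays compared and 2 with array weights. Numbers in the titles did not pair the arrays, as 1 of 9 arrays correlated best with its own number in another group; the replicate block gave 1 higher and 6 lower in L-GMP than in GMP, 0 and 12 in L-GMP-derived cells, and 1 and 9 against L-GMP. With 1 array left out, the counts lay at 1 to 2 higher and 4 to 7 lower in L-GMP, lowest without GMP replicate 2, at 0 to 1 higher and 10 to 13 lower in L-GMP-derived cells against GMP, and at 0 to 2 higher and 8 to 11 lower against L-GMP. Psme1's call in L-GMP was lost in 8 alternatives. Psmb8 gained a call against L-GMP with array weights (adjusted p = 0.0212) and without L-GMP replicate 1 (adjusted p = 0.0405). The counts without members that passed the filter through 1 group alone were added after the data were seen. The causes were not tested. Signals near the floor limit what dim members such as Ifit1 can show.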
